A study of Mus musculus with 15 samples.

Results

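The *Gimap* genes encode small GTP-binding proteins of immune cells, and in the mouse they lie side by side on chromosome 6, the chromosome that also carries *Ezh2*. The 8 genes described here, *Gimap1*, *Gimap3*, *Gimap4*, *Gimap5*, *Gimap6*, *Gimap7*, *Gimap8* and *Gimap9*, were chosen by family name and position, with earlier results of the same libraries known. All 8 of the 8 were present among the 17454 genes measured, and 5 of them were above 1 RPKM on average over the 15 libraries, where RPKM is reads per kilobase of gene model scaled to the depth of the library. Because of how they were chosen, the values of the cluster and their tests are given as a description and are read as support for nothing.

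GIMAP proteins are best known from lymphocytes, where several sit on intracellular membranes and are needed for the survival of mature T and B cells. *Gimap1*, *Gimap3* and *Gimap5* encode forms with a C-terminal membrane anchor, *Gimap6* encodes a soluble form that binds a GABARAP protein of the autophagy machinery, and *Gimap4* has been linked to lymphocyte death. The family is also transcribed in blood progenitors and endothelium.

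RNA was sequenced from yolk sac (YS) erythro-myeloid progenitors (EMPs), cells that supply the embryo with red and myeloid cells before stem cells take over, sorted at E10.5 from mice on a C57BL/6 background or backcrossed to it. All embryos sequenced carried floxed *Ezh2* alleles (*Ezh2*fl/fl), and *Ezh2* encodes the methyltransferase of polycomb repressive complex PRC2. *Tie2*-Cre, active from the endothelial stage, removed the SET domain in the 5 Tie2-Ezh2-KO libraries, and *Vav*-iCre, active from the onset of the hematopoietic stage, removed it in the 5 Vav-Ezh2-KO libraries. The 3 Tie2-Ezh2-WT and 2 Vav-Ezh2-WT libraries came from embryos of the same lines that lacked Cre, and together they are called WT below. Each library came from an individual YS. The labels give 500 cells a library, the methods of the study give a smaller number, and the 3 independent experiments are not assigned to libraries, so an experiment and a group cannot be told apart. Reads on genes numbered 10407398 in the shallowest library and 41025074 in the deepest.

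Replicates are given in a fixed order throughout: 4, 10 and 12 for Tie2-Ezh2-WT, 4 and 6 for Vav-Ezh2-WT, 7, 9, 11, 13 and 17 for Tie2-Ezh2-KO, and 1, 9, 10, 26 and 28 for Vav-Ezh2-KO. In that order the RPKM of *Ezh2* itself read 36.9, 39.5 and 30.1 in the first group and 42.0 and 41.5 in the second. It read 27.8, 26.2, 24.8, 29.5 and 26.5 where *Tie2*-Cre had acted, and 33.7, 42.4, 37.8, 38.1 and 34.0 where *Vav*-iCre had. The 5 Tie2-Ezh2-KO values lay below all 10 others, and the Vav-Ezh2-KO values overlapped those of WT. RPKM over the whole gene counts the retained exons together with the deleted ones, so it does not check the deletion in either knockout.

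All 8 markers of EMPs were measured in the table, from *Ptprc* at 8.56 RPKM, *Fcgr2b* at 8.69 RPKM and *Runx1* at 9.32 RPKM to *Fcgr3* at 115 RPKM and *Gfi1b* at 217 RPKM on average. The sorting markers *Kit* and *Itga2b* were at 27.3 and 29.3 RPKM, and *Myb* at 48.7 RPKM. Markers of mature T cells, among the cells in which the family is best studied, were mostly low. *Cd4* was at 0 in all 15 libraries, and *Cd3d* and *Cd8a* averaged 0.0434 and 0.0737 RPKM. The highest of the T and NK cell markers listed further below were *Lck* at 2.31 RPKM and *Il7r* at 0.305 RPKM.

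Within the cluster the levels spanned 3 tiers. *Gimap6* and *Gimap1* were highest, at 39.4 ± 13.7 and 37.8 ± 8.07 RPKM (SD, n = 15), and ranked 2688 and 2757 of 17454 genes. *Gimap9* followed at 18.2 ± 4.41 RPKM, *Gimap5* at 6.13 ± 2.15 RPKM and *Gimap4* at 2.06 ± 0.808 RPKM (SD, n = 15). *Gimap3*, *Gimap7* and *Gimap8* averaged 0.255, 0.135 and 0.109 RPKM. *Gimap1* was above *Gimap9*, *Gimap9* above *Gimap5*, *Gimap5* above *Gimap4* and *Gimap4* above *Gimap3* in 15 of 15 libraries, so this part of the order held in every group. The top of the order did differ between groups, and the bottom was not resolved, with *Gimap7* above *Gimap8* in 7 of 15 libraries. *Gimap6*, *Gimap1* and *Gimap9* together made up at least 89.7% of the summed RPKM of the cluster in each library.

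**Figure D1:**
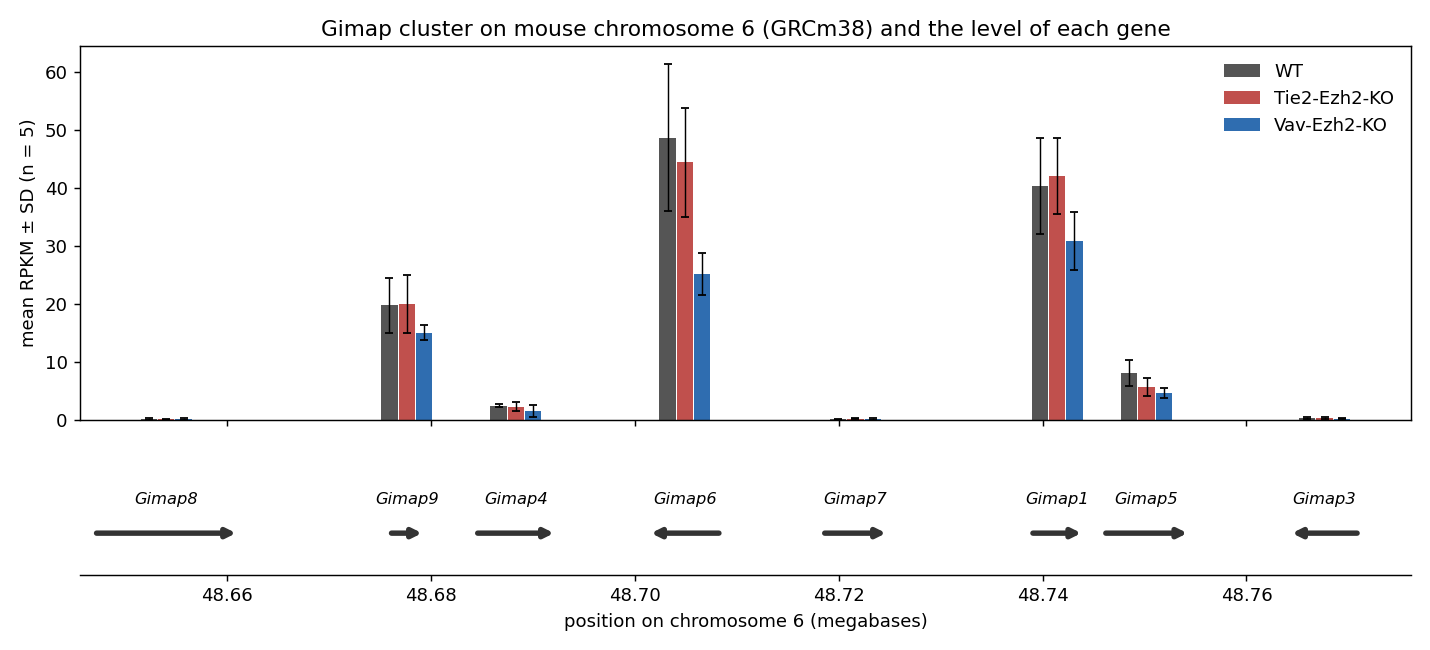
The 8 *Gimap* genes on chromosome 6 (GRCm38), with arrows showing each gene and its strand along the x axis in megabases, and above them the mean RPKM on the y axis in WT and in each knockout (bars start at 0, error bars are SD, n = 5 each). *Gimap6* and *Gimap1* carry the tallest bars, and the *Gimap6* bar of Vav-Ezh2-KO stands at 25.1 RPKM against 48.7 in WT.

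The main difference between groups lay in *Gimap6*, which was lower in Vav-Ezh2-KO EMPs than in the other groups. *Gimap6* was at 54.8, 39.3 and 59.0 RPKM in Tie2-Ezh2-WT and at 31.4 and 59.2 RPKM in Vav-Ezh2-WT. In Tie2-Ezh2-KO it was at 43.2, 45.3, 35.1, 59.7 and 39.0 RPKM, and in Vav-Ezh2-KO at 22.3, 22.4, 23.2, 30.6 and 26.9 RPKM. Every Vav-Ezh2-KO library was below each of the 10 others, and the closest pair was Vav-Ezh2-KO replicate 26 at 30.6 RPKM and Vav-Ezh2-WT replicate 4 at 31.4 RPKM. The Tie2-Ezh2-KO values lay within the range of WT apart from replicate 13, which at 59.7 RPKM was just above it. These values rest on 568 to 3902 reads a library. In bulk RNA, fewer cells that transcribe a gene and less RNA per cell cannot be told apart.

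The group means of *Gimap6* were 48.7 ± 12.7 RPKM in WT, 44.5 ± 9.38 RPKM in Tie2-Ezh2-KO and 25.1 ± 3.62 RPKM in Vav-Ezh2-KO (SD, n = 5 each). On the log2(RPKM + 0.2) scale, on which all changes below are given, Vav-Ezh2-KO differed from WT by -0.92 with a 95% confidence interval of -1.28 to -0.56. Its limma p of 8.03e-05 was the fifth smallest of 13646 genes, and its adjusted p was 0.203. Tie2-Ezh2-KO differed from WT by -0.11 (SE 0.19, limma adjusted p = 0.938). Set directly against Vav-Ezh2-KO, Tie2-Ezh2-KO was higher by 0.81 (SE 0.15, limma adjusted p = 0.00611), which ranked 154 of 14120 genes. With each knockout set against the WT libraries of its own Cre line this difference was 0.59 (SE 0.31, limma adjusted p = 0.826, in a range of 0.00573 to 0.826 over 20 alternatives), and the call was lost. Without Vav-Ezh2-WT replicate 4, the WT library with the lowest *Gimap6*, Vav-Ezh2-KO against WT came to -1.07 with a limma adjusted p of 0.0250, in a range of 0.0250 to 0.862 over 20 alternatives. That was the only 1 of the 20 in which it was called. Against the Vav-Ezh2-WT libraries alone the change was -0.79 (SE 0.22, limma adjusted p = 0.862).

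**Figure D2:**
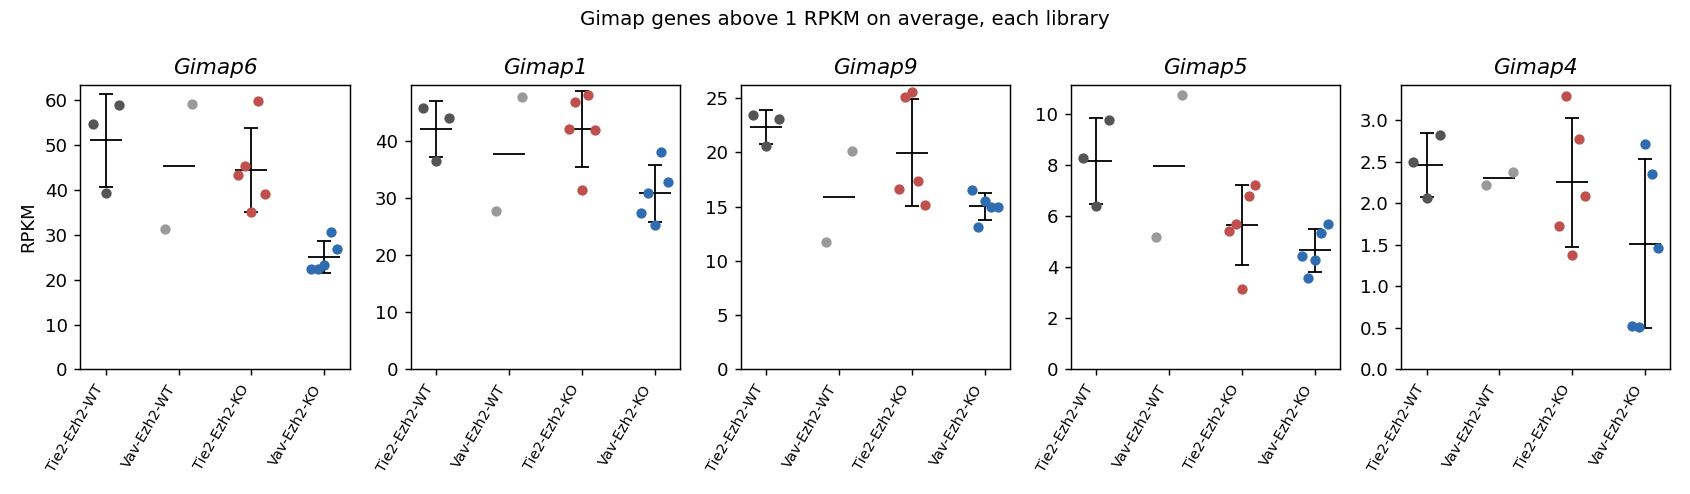
RPKM (y axis, from 0) of the 5 *Gimap* genes above 1 RPKM on average, with a point for each of the 15 libraries in the 4 groups along the x axis, a horizontal line at the group mean and bars of 1 SD for groups of 3 or 5. The *Gimap6* points of Vav-Ezh2-KO sit between 22.3 and 30.6 RPKM, below all other libraries, while for the other 4 genes each knockout overlaps the 5 WT libraries.

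Among the members with a membrane anchor, *Gimap1* is required for mature lymphocytes. It was at 45.8, 36.5 and 44.1 RPKM in Tie2-Ezh2-WT, at 27.7 and 47.8 RPKM in Vav-Ezh2-WT, at 42.1, 46.9, 31.4, 48.1 and 41.9 RPKM in Tie2-Ezh2-KO and at 27.3, 30.8, 25.3, 38.1 and 32.7 RPKM in Vav-Ezh2-KO. The Vav-Ezh2-KO libraries were in the lower part of the range and overlapped both WT and Tie2-Ezh2-KO. The change was -0.37 against WT (SE 0.15, limma adjusted p = 0.587) in Vav-Ezh2-KO and 0.07 (SE 0.16, limma adjusted p = 0.957) in Tie2-Ezh2-KO. Tie2-Ezh2-KO minus Vav-Ezh2-KO came to 0.44 (SE 0.14, limma adjusted p = 0.110). Leaving out Tie2-Ezh2-KO replicate 11, the lowest of its group, gave 0.54 with a limma adjusted p of 0.0453, in a range of 0.0453 to 0.986 over 20 alternatives. An antisense gene, *Gimap1os*, covers 36.0% of the exon bases annotated for *Gimap1* by GENCODE, and the library kit keeps no strand, so reads of both cannot be told apart there. Its share of the bases counted for RPKM was not determined, and the level of *Gimap1* is uncertain.

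*Gimap5*, whose loss depletes lymphocytes and damages the liver in mice, had lower means in both knockouts, without a call. It was at 8.26, 6.41 and 9.76 RPKM in Tie2-Ezh2-WT and at 5.18 and 10.8 RPKM in Vav-Ezh2-WT, against 5.43, 5.69, 3.16, 6.79 and 7.20 RPKM in Tie2-Ezh2-KO and 4.43, 3.58, 4.27, 5.32 and 5.68 RPKM in Vav-Ezh2-KO. Both knockouts lay toward the low end and overlapped WT, Vav-Ezh2-KO only through Vav-Ezh2-WT replicate 4 at 5.18 RPKM and Tie2-Ezh2-KO also through Tie2-Ezh2-WT replicate 10 at 6.41 RPKM. The change against WT was -0.74 (SE 0.21, limma adjusted p = 0.542) in Vav-Ezh2-KO and -0.50 (SE 0.25, limma adjusted p = 0.519) in Tie2-Ezh2-KO, and neither passed the threshold of 0.05. The direct difference between the knockouts was 0.24 (SE 0.23). *Gimap3*, the close paralog of *Gimap5*, stayed between 0.0825 and 0.549 RPKM, on 4 to 37 reads. The 2 genes share 83 stretches of 75 bases, the read length, which is 3.32% of those in *Gimap3* and 1.97% of those in *Gimap5*, so some of their reads could have been placed on either. *Gimap5* had many more reads than *Gimap3*, so the few reads of *Gimap3* are the more uncertain.

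For the remaining members each knockout overlapped the 5 WT libraries. *Gimap9* was at 23.4, 20.5 and 23.0 RPKM in Tie2-Ezh2-WT, at 11.7 and 20.1 RPKM in Vav-Ezh2-WT, at 16.6, 25.1, 25.5, 17.4 and 15.2 RPKM in Tie2-Ezh2-KO and at 16.6, 13.2, 15.5, 14.96 and 14.93 RPKM in Vav-Ezh2-KO. The Vav-Ezh2-KO libraries kept to a narrow band, with Vav-Ezh2-WT replicate 4 below it. Against WT the change in Vav-Ezh2-KO was -0.35 (SE 0.17, limma adjusted p = 0.638), and -0.03 when only the 2 Vav-Ezh2-WT libraries were used. In Tie2-Ezh2-KO it was 0.02 (SE 0.21), and the direct difference of 0.38 (SE 0.16, limma adjusted p = 0.249) became -0.16 when each knockout was set against its own WT.

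*Gimap4*, linked to lymphocyte death, varied among the Vav-Ezh2-KO libraries, on 17 to 210 reads over all 15 libraries. It was at 2.50, 2.06 and 2.83 RPKM in Tie2-Ezh2-WT, 2.23 and 2.38 RPKM in Vav-Ezh2-WT, 1.73, 3.29, 1.38, 2.78 and 2.09 RPKM in Tie2-Ezh2-KO, and 0.528, 0.510, 2.72, 2.35 and 1.46 RPKM in Vav-Ezh2-KO. Vav-Ezh2-KO replicates 1 and 9, on 27 and 17 reads, were the lowest of all 15 libraries, while replicates 10 and 26 lay within the range of WT. Replicate 28 lay in between. The change against WT was -0.83 (SE 0.38, limma adjusted p = 0.624) in Vav-Ezh2-KO and -0.13 (SE 0.26) in Tie2-Ezh2-KO. *Gimap7* and *Gimap8* were near the limit of detection, with 0 to 15 and 0 to 32 reads a library. *Gimap7* had no read in 7 of 15 libraries and *Gimap8* in 5 of 15, and no difference between groups was called for either gene.

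Over the whole cluster, the summed RPKM was 120 ± 27.3 in WT (78.5 to 141), 115 ± 15.7 in Tie2-Ezh2-KO (96.9 to 135) and 77.6 ± 9.44 in Vav-Ezh2-KO (70.8 to 92.0; SD, n = 5 each). Tie2-Ezh2-KO libraries all exceeded those of Vav-Ezh2-KO, whereas WT overlapped them through Vav-Ezh2-WT replicate 4 at 78.5 RPKM. In Vav-Ezh2-KO against WT, limma called 0 of the 8 members, where it called 0.00733% of 13646 genes. Limma-voom on recovered reads also called 0, and 4 members had an unadjusted limma p under 0.05 by either method. The 4 by the first were *Gimap6*, *Gimap5*, *Gimap1* and *Gimap4*, all lower, a direction that held 3.93% of all genes at that p. The Vav-Ezh2-KO group lay wholly below WT for 1 member, *Gimap6*, and for 0.806% of all genes. Of the 8, 6 had a negative change, and their median was -0.43 beside -0.02 over all genes tested.

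In Tie2-Ezh2-KO against WT, limma called 0 of the 8 members and 2.73% of 14154 genes. At an unadjusted p under 0.05 it held 0 members and 10.97% of genes, limma-voom held 0 members at either level, and groups did not overlap for 0 members and 4.01% of genes. The median change of the members was -0.12 beside 0.01 over all genes, with 5 negative. In Tie2-Ezh2-KO against Vav-Ezh2-KO, limma called 1 of 8 members, *Gimap6*, and 3.51% of 14120 genes. At an unadjusted p under 0.05, 3 members and 10.54% of genes were higher in Tie2-Ezh2-KO, and 1 member and 3.56% of genes lay wholly above Vav-Ezh2-KO. Here 7 of 8 members had a positive change, and their median was 0.36 beside 0.04 over all genes. The first 2 comparisons share their WT libraries, and the members had been chosen with these results in view, so nothing is read from the counts.

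**Figure D3:**
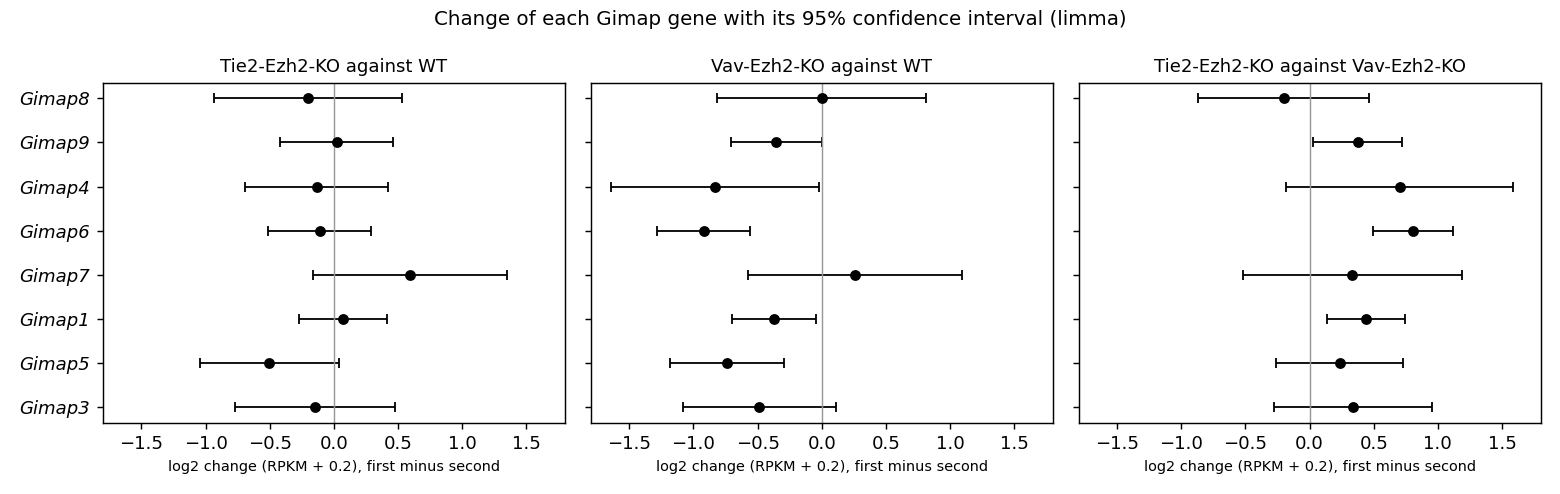
Change of each *Gimap* gene on the log2(RPKM + 0.2) scale (x axis) with its limma 95% confidence interval, genes in chromosomal order on the y axis, in the 3 comparisons (5 libraries a group). Intervals lie below 0 for *Gimap6*, *Gimap5*, *Gimap1* and *Gimap4* in Vav-Ezh2-KO against WT and above 0 for *Gimap6*, *Gimap1* and *Gimap9* in Tie2-Ezh2-KO against Vav-Ezh2-KO, and all 8 intervals of Tie2-Ezh2-KO against WT include 0.

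Dividing by *Gimap1* removes what the 2 most abundant members share in a library. The ratios given here were chosen after the values had been seen and were not tested. *Gimap6* over *Gimap1* was 1.20, 1.08 and 1.34 in Tie2-Ezh2-WT, 1.13 and 1.24 in Vav-Ezh2-WT, 1.03, 0.965, 1.12, 1.24 and 0.932 in Tie2-Ezh2-KO and 0.818, 0.725, 0.916, 0.803 and 0.823 in Vav-Ezh2-KO. *Gimap6* was thus the more abundant gene in 5 of 5 WT, 3 of 5 Tie2-Ezh2-KO and 0 of 5 Vav-Ezh2-KO libraries. *Gimap5* over *Gimap1* was 0.198 ± 0.0234 in WT, 0.133 ± 0.0263 in Tie2-Ezh2-KO and 0.152 ± 0.0239 in Vav-Ezh2-KO (SD, n = 5 each). Every knockout library, at 0.101 to 0.174, was below every WT library, at 0.176 to 0.225, by a narrow margin. *Gimap9* over *Gimap1* did not separate the groups, at 0.488 ± 0.0634 in WT, 0.4934 ± 0.193 in Tie2-Ezh2-KO and 0.499 ± 0.104 in Vav-Ezh2-KO (SD, n = 5 each). The part of *Gimap1os* in the denominator was not tested.

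Across the 15 libraries, *Gimap6* and *Gimap1* varied together most closely, with a Pearson r of 0.894 and of 0.892 after each group mean was subtracted (n = 15). *Gimap6* with *Gimap5* gave 0.785 and 0.807, and *Gimap1* with *Gimap5* gave 0.743 and 0.828. The pairs with *Gimap9* and *Gimap4* were looser. *Gimap9* gave 0.603 and 0.307 with *Gimap6*, 0.516 and 0.195 with *Gimap1*, 0.346 and 0.0873 with *Gimap4* and 0.292 and 0.0347 with *Gimap5*. *Gimap4* gave 0.661 and 0.447 with *Gimap6*, 0.543 and 0.330 with *Gimap1* and 0.577 and 0.435 with *Gimap5*. The points share libraries, depth and sort, and these values are a description. The profile of the 5 members above 1 RPKM was then set against 9881 genes above 1 RPKM. The closest were *Eltd1* (r = 0.926) and *Ecscr* (r = 0.909), both known from endothelium, *Gcnt2*, an enzyme of blood group I synthesis (r = 0.868), the Notch ligand relative *Dlk1* (r = 0.857) and the homeobox gene *Hoxa9* (r = 0.844). With group means subtracted they were *Igf2* (r = 0.894), the kinase gene *Nek4* (r = 0.888), *Gcnt2* (r = 0.865), *Ecscr* (r = 0.857) and *Eltd1* (r = 0.847).

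These 7 genes were picked for following the cluster in the same libraries, so a test of their difference between groups would restate that choice and none is given. *Eltd1* averaged 17.99 ± 4.78 RPKM in WT, 16.2 ± 6.13 RPKM in Tie2-Ezh2-KO and 7.53 ± 4.81 RPKM in Vav-Ezh2-KO, and *Ecscr* 4.87 ± 2.07, 4.82 ± 1.63 and 2.04 ± 1.29 RPKM (SD, n = 5 each). *Dlk1* was at 10.1 ± 4.03, 13.8 ± 4.57 and 2.18 ± 1.37 RPKM, *Gcnt2* at 4.96 ± 1.59, 6.13 ± 2.50 and 2.62 ± 0.891 RPKM and *Hoxa9* at 2.24 ± 1.18, 1.93 ± 0.646 and 0.782 ± 0.695 RPKM. *Igf2* was at 3.21 ± 2.38, 3.18 ± 1.82 and 1.81 ± 1.52 RPKM. *Nek4* was instead highest in Vav-Ezh2-KO on average, at 2.94 ± 0.942 RPKM in WT, 3.75 ± 0.764 RPKM in Tie2-Ezh2-KO and 3.95 ± 0.714 RPKM in Vav-Ezh2-KO.

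Since 2 endothelial genes were closest to the cluster, the whole list of 12 endothelial markers is given beside it. All 12 were in the table, and limma called 0 of them in each comparison, with 3, 2 and 5 at an unadjusted p under 0.05 in Tie2-Ezh2-KO against WT, Vav-Ezh2-KO against WT and Tie2-Ezh2-KO against Vav-Ezh2-KO, where 1552 of 14154, 1082 of 13646 and 2342 of 14120 genes reached it. Their summed RPKM was 316, 316 and 335 in Tie2-Ezh2-WT, 294 and 388 in Vav-Ezh2-WT, 310, 300, 284, 339 and 322 in Tie2-Ezh2-KO and 266, 221, 267, 327 and 241 in Vav-Ezh2-KO. The Vav-Ezh2-KO sums were thus mostly low and overlapped the rest through replicate 26. *Cd34* (154 ± 33.1 RPKM in WT and 107 ± 27.9 RPKM in Vav-Ezh2-KO) and *Egfl7* (119 ± 12.9 and 102 ± 3.40 RPKM, SD, n = 5 each) carried most of that difference. *Pecam1*, *Eng*, *Plvap* and the barely detected *Cldn5* had higher means in Vav-Ezh2-KO than in WT. *Cd34*, which progenitors also express, was the most abundant at 131 RPKM, followed by *Egfl7* at 113 RPKM, *Pecam1* at 16.7 RPKM and *Esam* at 12.1 RPKM. *Eng*, *Tek*, *Plvap*, *Tie1*, *Emcn* and *Kdr* averaged 8.24, 7.56, 6.00, 3.53, 1.59 and 1.33 RPKM, and *Cdh5* and *Cldn5* were lowest at 0.189 and 0.122 RPKM. The median change of the list was 0.23, -0.20 and 0.33 in the 3 comparisons, beside 0.01, -0.02 and 0.04 over all genes. EMPs had been sorted as KIT and CD41 positive cells with Fc receptors, and whether endothelial cells were among them or had a part in the *Gimap6* difference was not tested.

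Genes of apoptosis and autophagy, interferon-inducible GTPases and lymphoid and blood transcription factors were described from lists. Of 15 regulators of apoptosis in the Bcl2 family, limma tested 13, 14 and 14 in Tie2-Ezh2-KO against WT, Vav-Ezh2-KO against WT and Tie2-Ezh2-KO against Vav-Ezh2-KO. In that order 2.73%, 0.00733% and 3.51% of all genes were called. Of the list *Bik* alone was called, a gene that promotes cell death. It rose in Tie2-Ezh2-KO against WT (0.318 ± 0.264 to 2.11 ± 0.546 RPKM, SD, n = 5 each, change 2.29, limma adjusted p = 0.00321). It also passed between the knockouts (1.57, limma adjusted p = 0.0371), but not without any of Tie2-Ezh2-KO replicates 7, 13 or 17 or Vav-Ezh2-KO replicates 1, 9 or 28 (0.0590 to 0.0927), and over 20 alternatives it was lost in 13, with a limma adjusted p of up to 0.306. The most abundant member, the death effector *Bax*, was at 127 RPKM, and the median change of the list was 0.11, 0.15 and -0.07 in Tie2-Ezh2-KO against WT, Vav-Ezh2-KO against WT and Tie2-Ezh2-KO against Vav-Ezh2-KO.

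Of 13 genes of autophagy, those of the LC3 and GABARAP family and its conjugation with *Sqstm1* and the kinase genes *Gsk3a* and *Gsk3b*, all measured, *Gabarapl1* alone was called, lower in Tie2-Ezh2-KO than in Vav-Ezh2-KO (17.6 ± 2.48 against 28.0 ± 3.30 RPKM, SD, n = 5 each, change -0.67, limma adjusted p = 0.00966). With each knockout set against its own WT the change was -0.20 and the call was lost. *Map1lc3b* was most abundant at 168 RPKM, and the medians were -0.07, 0.11 and -0.11. Of 18 interferon-inducible GTPases, another GTPase family of immune cells, 17 were in the table and *Iigp1* and *Gbp8* were at 0 throughout. *Irgm1* led at 13.7 RPKM, the medians were 0.16, 0.14 and -0.05, and *Ifi47* was called lower in Tie2-Ezh2-KO than in Vav-Ezh2-KO (3.51 ± 1.07 against 6.68 ± 0.850 RPKM, SD, n = 5 each, limma adjusted p = 0.0328). That call was lost without any of Tie2-Ezh2-KO replicates 7, 11 or 13 or Vav-Ezh2-KO replicates 1, 9, 10 or 26 (0.0523 to 0.0814), in all in 9 of 20 alternatives (up to 0.687).

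Of 19 lymphoid and blood transcription factors, 1 of them listed under both of its symbols, 17 were in the table, led by *Gata1* at 177 RPKM. Only *Tcf7*, a factor of early T cells, was called, in Tie2-Ezh2-KO against Vav-Ezh2-KO (1.36 ± 0.689 against 0.284 ± 0.242 RPKM, SD, n = 5 each, limma adjusted p = 0.0291), and not without any of Tie2-Ezh2-KO replicates 7, 13 or 17 or Vav-Ezh2-KO replicates 1, 9 or 28 (0.0671 to 0.0821). It was lost in 8 of 20 alternatives (limma adjusted p up to 0.822). The medians were 0.06, -0.08 and 0.04. In Vav-Ezh2-KO against WT, where *Gimap6* was lowest, limma called no gene of these 4 lists, with 1 gene of each at an unadjusted p under 0.05, where 1082 of 13646 genes reached it.

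The remaining marker lists are given by their counts, and in Vav-Ezh2-KO against WT limma called no gene of any of them. Over all genes, it called 2.73% in Tie2-Ezh2-KO against WT, 0.00733% in Vav-Ezh2-KO against WT and 3.51% in Tie2-Ezh2-KO against Vav-Ezh2-KO. Of 13 T and NK cell markers 9 were in the table, with *Lck* the most abundant at 2.31 RPKM. In the same order of comparisons 6, 5 and 6 of them were tested, and 2, 0 and 2 had an unadjusted limma p under 0.05. *Cd2* was called in Tie2-Ezh2-KO (limma adjusted p = 0.0121 against WT and 0.0103 against Vav-Ezh2-KO), at 0.163 to 0.515 RPKM there, on 3 to 9 reads, and at 0 in all WT and Vav-Ezh2-KO libraries. It entered both tests only through the Tie2-Ezh2-KO libraries, and its change against WT ran from 0.40 to 3.75 over the alternatives. The *Cd2* calls are therefore a description and are read as support for nothing. The *Cd2* call against WT was lost with quantile normalization (limma adjusted p = 0.0522) and with WT of the same line (0.107), and that against Vav-Ezh2-KO with each knockout set against its own WT (0.279). *Lck* was called against WT (3.67 ± 1.27 against 1.46 ± 0.397 RPKM, SD, n = 5 each, limma adjusted p = 0.0340). The *Lck* call was lost without any of Tie2-Ezh2-WT replicates 4, 10 or 12, Vav-Ezh2-WT replicate 4 or Tie2-Ezh2-KO replicates 9, 11 or 13 (0.0562 to 0.0871), in all in 11 of 20 alternatives (up to 0.0895). The list summed to 1.60 to 3.25 RPKM in WT, 3.46 to 6.84 RPKM in Tie2-Ezh2-KO and 2.22 to 3.25 RPKM in Vav-Ezh2-KO, so its sums were highest in Tie2-Ezh2-KO. Of 11 B cell markers 8 were in the table, led by *Cd79b* at 31.1 RPKM, and 5 were tested. None was called, with 1, 0 and 0 at an unadjusted p under 0.05 in Tie2-Ezh2-KO against WT, Vav-Ezh2-KO against WT and Tie2-Ezh2-KO against Vav-Ezh2-KO. Over all genes, 1552 of 14154, 1082 of 13646 and 2342 of 14120 reached that p.

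All 8 macrophage markers were in the table, 1 of them under its older symbol, with *C1qa* at 0 throughout. *Cd68* led at 13.1 RPKM and was called lower in Tie2-Ezh2-KO than in Vav-Ezh2-KO (limma adjusted p = 0.0333), a call lost without any of Tie2-Ezh2-KO replicates 7, 11 or 17 or Vav-Ezh2-KO replicates 1, 26 or 28 (0.0508 to 0.0940). Over 20 alternatives it was lost in 10 (limma adjusted p up to 0.978), and with each knockout set against its own WT the change was -0.39 in place of -0.71. Of 7 megakaryocyte markers, led by *Pf4* at 69.8 RPKM, *Gp1ba* was called lower in Tie2-Ezh2-KO than in WT (limma adjusted p = 0.0495), lost without any of Tie2-Ezh2-WT replicates 4 or 10, Vav-Ezh2-WT replicates 4 or 6 or Tie2-Ezh2-KO replicates 7, 9, 11 or 17 (0.0640 to 0.146), in all in 13 of 20 alternatives (up to 0.231). Of the 8 EMP markers *Gfi1b* was called higher in Tie2-Ezh2-KO than in Vav-Ezh2-KO (limma adjusted p = 0.0300), lost without any of Tie2-Ezh2-KO replicates 7 or 11 or Vav-Ezh2-KO replicates 1, 9, 10 or 28 (0.0506 to 0.0833), in all in 10 of 20 alternatives (up to 0.667). *Kit* and *Itga2b* also had higher means in Tie2-Ezh2-KO than in Vav-Ezh2-KO, and *Fcgr2b*, *Fcgr3*, *Ptprc*, *Runx1* and *Myb* lower ones. At an unadjusted limma p under 0.05 were 4, 0 and 3 of the 8 in Tie2-Ezh2-KO against WT, Vav-Ezh2-KO against WT and Tie2-Ezh2-KO against Vav-Ezh2-KO. Over all genes, 1552 of 14154, 1082 of 13646 and 2342 of 14120 reached that p.

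Of 4 primitive erythroid markers 3 were in the table, and the embryonic globin gene *Hba-x* was called higher in Tie2-Ezh2-KO, at 166 ± 146 RPKM, than in WT, at 1.36 ± 0.858 RPKM, and Vav-Ezh2-KO, at 3.09 ± 3.33 RPKM (SD, n = 5 each, limma adjusted p = 8.88e-05 and 0.000422), the call against WT being lost with limma-voom (0.0787). *Hbb-bh1*, the most abundant at 165 RPKM, was called in the same comparisons (limma adjusted p = 0.0441 and 0.0302). Its call against WT was lost without any of the 5 WT libraries or Tie2-Ezh2-KO replicates 7, 9 or 11 (0.0535 to 0.101), and that against Vav-Ezh2-KO without any of Tie2-Ezh2-KO replicates 7 or 11 or Vav-Ezh2-KO replicates 1, 9 or 10 (0.0575 to 0.0736). Over 20 alternatives these calls were lost in 13 (limma adjusted p up to 0.246) and in 9 (up to 0.978, with the change at 0.60 in place of 1.29). All 3 markers were tested in each comparison. Of all genes, limma called 2.73% in Tie2-Ezh2-KO against WT and 3.51% in Tie2-Ezh2-KO against Vav-Ezh2-KO. Of 7 visceral endoderm markers 6 were tested in each comparison. *Amn* was called in Tie2-Ezh2-KO against WT and against Vav-Ezh2-KO (limma adjusted p = 0.00155 and 0.000149), the second call being lost with each knockout set against its own WT (0.153). It was on 38 to 125 reads in Tie2-Ezh2-KO, 0 to 14 in WT and 0 to 5 in Vav-Ezh2-KO. In Vav-Ezh2-KO *Amn* reached at most 0.176 RPKM, so it entered the comparison of the knockouts only through Tie2-Ezh2-KO. That call too is read as support for nothing. *Apoa1* led at 9.44 RPKM. That list summed to 174 RPKM in Tie2-Ezh2-WT replicate 4 and 244 RPKM in Tie2-Ezh2-KO replicate 7, and to between 1.88 and 14.9 RPKM elsewhere. *Gimap6* in those 2 libraries, at 54.8 and 43.2 RPKM, was inside the range of its group.

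The median changes of these lists, in the order Tie2-Ezh2-KO against WT, Vav-Ezh2-KO against WT and Tie2-Ezh2-KO against Vav-Ezh2-KO, were 0.51, 0.19 and 0.24 for T and NK cells, 0.15, -0.08 and 0.02 for B cells and -0.21, 0.25 and -0.31 for macrophages. They were -0.04, -0.08 and -0.14 for megakaryocytes and -0.21, -0.15 and -0.13 for EMPs. Those of primitive erythroid cells were 1.18, 0.28 and 1.29, and those of visceral endoderm 0.69, -1.05 and 1.76. Each of these medians rests on 3 to 8 genes.

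On GRCm38 the cluster spans 123.7 kb of chromosome 6, from 48647186 to 48770851, and begins 1.052 megabases beyond the end of *Ezh2*, which lies at 47530274 to 47595270 on the minus strand. In order along the chromosome *Gimap8*, *Gimap9*, *Gimap4*, *Gimap6*, *Gimap7*, *Gimap1*, *Gimap5* and *Gimap3* are separated by 2401 to 15245 bases. *Gimap6* (48701583 to 48708244) and *Gimap3* are on the minus strand and the other 6 on the plus strand, among them *Gimap1* (48739047 to 48743795) and *Gimap9* (48676121 to 48679116). Neighbours could differ widely in level, as the barely detected *Gimap7* lies between *Gimap6* and *Gimap1*. RefSeq places 10 genes inside the cluster, and the 2 outside the family were not in the table. A further gene, *Gm28053*, overlaps 3.48% of the exon bases of *Gimap7*, 6.44% of *Gimap1* and 3.69% of *Gimap5* on the same strand, and *Gimap6*, *Gimap9*, *Gimap4* and *Gimap8* share no 75-base stretch with another gene.

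Because the floxed gene is on the same chromosome, the genes in between were described as well. Of 97 RefSeq genes between *Ezh2* and the cluster 20 were in the table, and 19 were tested. Limma called 0 of them in each comparison, with 0, 1 and 1 at an unadjusted p under 0.05 in Tie2-Ezh2-KO against WT, Vav-Ezh2-KO against WT and Tie2-Ezh2-KO against Vav-Ezh2-KO. Over all genes, 1552 of 14154, 1082 of 13646 and 2342 of 14120 reached that p, and 386, 1 and 495 were called. The changes of the 19 genes ran from -0.70 to 0.39, from -1.40 to 0.57 and from -1.14 to 0.77, with medians of -0.12, -0.06 and -0.10. Within 250 kb of the cluster, 10 genes outside the family were tested, and those called lie on the far side from *Ezh2*. *Tmem176a*, a membrane protein gene, was at 44.3 ± 7.84 RPKM in Tie2-Ezh2-KO, 27.0 ± 3.69 RPKM in WT and 26.6 ± 4.54 RPKM in Vav-Ezh2-KO (SD, n = 5 each). It rose in Tie2-Ezh2-KO against WT (0.70, SE 0.14, limma adjusted p = 0.0139) and against Vav-Ezh2-KO (0.73, SE 0.15, limma adjusted p = 0.0141), calls lost in 1 and 3 of 20 alternatives. Its partner *Tmem176b* was called between the knockouts (0.75, SE 0.17, limma adjusted p = 0.0234), but not without any of Tie2-Ezh2-KO replicates 7 or 13 or Vav-Ezh2-KO replicates 9, 10 or 28 (0.0548 to 0.0690), and it was lost in 9 of 20 alternatives (up to 0.213). In Vav-Ezh2-KO against WT none of the 10 was called, and 2 had an unadjusted limma p under 0.05, *Tmem176b* (-0.33) and *AI854703* (-0.61), while *Tmem176a* differed by -0.03.

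RefSeq promoters of 300 bases (GRCm38.p6) were found for all 8 members. The ETS motif CCGGAAG on either strand was in 8.86% of 32851 promoters and in no promoter of the cluster, and the GATA motif AGATAA in 11.2% of all and in none. The RUNX motif TGTGGT was in 16.8% of all and in those of *Gimap4*, *Gimap7* and *Gimap1*. A shorter ETS core, GGAAGT, was added after the promoters had been seen; it can overlap CCGGAAG and was in 23.8% of all promoters and in 4 of the cluster, *Gimap9*, *Gimap6*, *Gimap1* and *Gimap5*. These are matches of letters and not sites. The 4 promoters below belong to the 4 most abundant members, at chr6:48708195-48708494 on the minus strand for *Gimap6*, and on the plus strand at chr6:48738797-48739096 for *Gimap1*, chr6:48675885-48676184 for *Gimap9* and chr6:48745947-48746246 for *Gimap5*. They run 5′ to 3′ with matches to GGAAGT and TGTGGT or their complements in capitals, 1 in *Gimap6*, 2 in *Gimap1*, 2 in *Gimap9* and 2 in *Gimap5*. The promoters of *Gimap6*, *Gimap1*, *Gimap5* and *Gimap4* hold 4 CpG each and that of *Gimap9* 8, against a median of 7 over all promoters.
Gimap6: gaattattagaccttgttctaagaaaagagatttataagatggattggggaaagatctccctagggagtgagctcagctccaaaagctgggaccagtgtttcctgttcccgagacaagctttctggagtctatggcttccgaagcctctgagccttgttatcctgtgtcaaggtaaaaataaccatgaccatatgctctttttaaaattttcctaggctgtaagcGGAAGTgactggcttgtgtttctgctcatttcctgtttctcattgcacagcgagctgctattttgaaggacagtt
Gimap1: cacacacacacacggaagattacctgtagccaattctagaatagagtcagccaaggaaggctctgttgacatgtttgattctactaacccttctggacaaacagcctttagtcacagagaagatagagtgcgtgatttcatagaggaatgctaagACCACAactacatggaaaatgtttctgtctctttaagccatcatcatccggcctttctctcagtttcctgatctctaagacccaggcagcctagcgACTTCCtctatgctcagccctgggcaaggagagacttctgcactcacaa
Gimap9: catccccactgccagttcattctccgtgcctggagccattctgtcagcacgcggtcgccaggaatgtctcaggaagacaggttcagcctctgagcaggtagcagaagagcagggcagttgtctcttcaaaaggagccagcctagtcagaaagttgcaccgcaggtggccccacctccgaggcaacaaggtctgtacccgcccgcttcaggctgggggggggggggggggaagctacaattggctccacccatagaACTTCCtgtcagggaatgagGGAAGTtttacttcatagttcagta
Gimap5: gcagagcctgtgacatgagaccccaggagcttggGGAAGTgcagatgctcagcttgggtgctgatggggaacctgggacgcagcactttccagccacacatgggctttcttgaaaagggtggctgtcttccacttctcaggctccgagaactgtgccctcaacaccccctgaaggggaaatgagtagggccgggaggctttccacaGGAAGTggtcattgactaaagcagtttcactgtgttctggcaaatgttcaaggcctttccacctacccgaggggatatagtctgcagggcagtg

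These values are limited in several ways. The groups hold 5 libraries, WT joins 2 Cre lines, and the call of *Gimap6* between the knockouts did not hold when each knockout was set against its own 3 or 2 WT libraries. The experiment of each library is not in the labels, so it could not be fitted. RNA from few cells was amplified, and 3 members were close to 0. Protein, histone marks at the cluster and the cells that carry the *Gimap* transcripts were not analysed here, and the cause of the difference in *Gimap6* was not tested.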

How the data were processed

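RNA-seq of 15 libraries of E10.5 YS EMPs was used. Per the labels and the methods of the study, RNA was amplified with a SMARTer kit (16 PCR cycles), and the authors aligned 75-base single-end reads to GRCm38/mm10 with TopHat2 2.0.13, keeping 1 alignment per read, counted them with featureCounts on the RefSeq gene model and deposited RPKM on a linear scale. RPKM corrects for depth and length and not for composition. Reads were not independent molecules.

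Whole reads were recovered from the steps between low RPKM values: all 16877 genes above 0 came out whole to within 0.001, and 10407398 to 41025074 reads fell on genes (median 16091836). A gene entered a comparison when any of its libraries exceeded 0.2 RPKM, and was tested with limma 3.58.1 in R 4.3.3 (eBayes with trend) on log2(RPKM + 0.2), 5 libraries a group, with Benjamini-Hochberg adjustment over all genes and a threshold of 0.05. On simulated reads it recovered nearly all genes changed by known amounts and called few others. The genes changed there were well covered by reads, and each change was larger than that of any *Gimap* gene. Amplification and experiment were not simulated. The simulation therefore cannot show how well changes of the size seen here are found. Python 3.11.15, numpy 2.4.6, pandas 2.3.3, scipy 1.17.1 and matplotlib 3.10.9 were used for the rest. Alternatives were pseudocounts of 0.05 and 1, no filter, a filter of 1 RPKM in 3 libraries, quantile normalization, a common median, no trend, all libraries in 1 fit, limma-voom on recovered reads, WT of the same Cre line and leaving out each library.

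The genes named were all members, neighbours called, of each list the genes called and the most abundant, and the 5 genes most like the cluster by each measure. The members and lists were chosen with earlier results of these data known. The ATAC-seq, CUT&RUN and culture experiments were not used here, and 1 marker gene is not reported here.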

Additional observations from a re-analysis of the deposited data

Results flagged for a closer look

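The spread of libraries was examined in 33 groups of 5 libraries, and 3 libraries stood far from the rest of their group, judged by the gap to the nearest library as a share of the whole range. Chance gives about 1 in 20. *Gimap9* in Vav-Ezh2-WT replicate 4 was at 11.7 RPKM against 20.1 to 23.4 RPKM in the other WT libraries (share 0.718). This library also had the lowest *Gimap6*, *Gimap1* and *Gimap5* of WT. *Gimap7* in Tie2-Ezh2-WT replicate 12, the deepest library, was at 0.288 RPKM on 15 reads against 0 to 0.0395 RPKM in the rest of WT (share 0.863). *Gimap3* in Tie2-Ezh2-KO replicate 9 was at 0.549 RPKM against 0.191 to 0.220 RPKM in the rest of its group (share 0.919), on at most 18 reads.

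*Gimap6* differed between the 2 knockouts set directly against each other, a call that was lost with WT of each line. With the same WT for both, the WT values cancel. The effect in Tie2-Ezh2-KO minus that in Vav-Ezh2-KO is then the direct difference of 0.81 (limma adjusted p = 0.00611). That value uses no WT library, so it cannot show whether the effect of the knockout differed between the Cre lines. With WT of its own line for each knockout the difference was 0.59 (SE 0.31, limma adjusted p = 0.826, in a range of 0.00573 to 0.826 over 20 alternatives).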

How the results depend on the processing

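Each of the 3 comparisons was run under 20 alternatives. In Tie2-Ezh2-KO against WT the number of members called was 0 in all 20. In Vav-Ezh2-KO against WT it was 0 under the 9 alternatives that kept all libraries and with WT of the same line, and ran from 0 to 1 when each library was left out in turn, the 1 being *Gimap6* without Vav-Ezh2-WT replicate 4. *Gimap6*, *Gimap1*, *Gimap9*, *Gimap5* and *Gimap4* were lower in Vav-Ezh2-KO than in WT under all 20, with *Gimap6* between -1.07 and -0.79 and *Gimap9* between -0.53 and -0.03. In Tie2-Ezh2-KO against Vav-Ezh2-KO the number called ran from 1 to 2 with each library left out, and was 0 with each knockout set against the WT of its own line, which leaves 3 and 2 WT libraries. *Gimap6* was called in 19 of the 20. The filter of 1 RPKM in 3 libraries leaves 5 of 8 members. No paired analysis was possible, because each library came from an individual YS and the labels pair no libraries.

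Genes called in all were 386 in Tie2-Ezh2-KO against WT and 187 with WT of the same line. In Vav-Ezh2-KO against WT they were 1, against 0 with limma-voom and 2 with a common median, with WT of the same line and without any of Tie2-Ezh2-WT replicates 10 or 12 or Vav-Ezh2-WT replicate 4. In Tie2-Ezh2-KO against Vav-Ezh2-KO they were 495, against 26 with each knockout set against its own WT, 969 without Tie2-Ezh2-KO replicate 9 and 320 without Vav-Ezh2-KO replicate 28. The share of these calls that were higher in Tie2-Ezh2-KO was 75.2%, and 63.6% after quantile normalization, and with a common median 1 of the 2 genes called in Vav-Ezh2-KO against WT was higher, in place of 1 of 1. The cause was not tested. Reads limit *Gimap3*, *Gimap7* and *Gimap8*, with at most 37, 15 and 32 a library.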
